A study of Homo sapiens with 6 samples.

Results

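The genes described here are 42 genes of ribosome biogenesis, matched to the data by gene symbol. Each of the 42 symbols matched a single entry among the 26184 genes and loci of the deposited table, and all 42 had enough counts to test, beside 17531 genes and loci tested in all. RNA-seq covered 6 samples, 3 for Huh7 P and 3 for Huh7 LR, and the question of the comparison was how the lenvatinib-resistant line differs from its parent. Huh7 P is the untreated parental line of Huh7, an established human hepatocellular carcinoma cell line, labelled as WT in genotype. Huh7 LR was derived from it by 10 months of growth in lenvatinib, an inhibitor of receptor tyrosine kinases, raised from 1 to 20 μM, and carries the same genotype label. Huh7 LR is 1 line obtained in 1 selection, it was kept in 20 μM lenvatinib, and whether the drug was present at harvest was not given in the sources used here. Resistance, drug exposure and the separate passage of the lines therefore cannot be told apart. The 3 samples of a line are described as independent, without saying what separated them, so that p-values measure the spread between these samples. In bulk RNA, fewer cells that express a gene and less RNA of it per cell cannot be told apart either.

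Ribosomes are built in the nucleolus. RNA polymerase I transcribes the ribosomal DNA into a long precursor, small nucleolar ribonucleoproteins (snoRNPs) guide the chemical modification of its nucleotides, and assembly factors fold and cut it while ribosomal proteins are added. The precursor is then parted into a particle that becomes the small 40S subunit and another that becomes the large 60S subunit. Hepatocellular carcinoma cells depend on this pathway as other growing cells do, and many of its genes are known targets of the transcription factor MYC.

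The libraries held between 62738937 and 71427573 counts each. The hepatocyte and liver cancer markers fit the labelled cell type, since all 10 listed were detected, ALB among them at a mean of 12951 CPM (the usual unit of counts over library size, here scaled by the TMM method) in Huh7 P and 21566 CPM in Huh7 LR. Of the markers of other cells, DCN, TYROBP, HLA-DRA, CDH5, KDR and TEK had 0 counts in all 6 libraries. The summed level of 6 fibroblast markers lay between 2.16 and 2.28 CPM in Huh7 P and between 5.02 and 8.02 CPM in Huh7 LR. That of 6 leukocyte markers, most of it LYZ (63.7 CPM in Huh7 P and 9.19 CPM in Huh7 LR on average) and the rest nearly all CD14 (1.88 and 2.71 CPM), lay between 62 and 67.6 CPM in Huh7 P and between 9.84 and 13.8 CPM in Huh7 LR. That of 5 endothelial markers, nearly all of it PECAM1, lay between 38.8 and 47.5 CPM in Huh7 P and between 65 and 71.2 CPM in Huh7 LR. The part of these markers in the differences below was not tested.

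The ribosome biogenesis genes were lower in Huh7 LR almost throughout. Of the 42 genes, 39 fell and 0 rose. A gene was called when its p from the quasi-likelihood test of edgeR, adjusted by the Benjamini-Hochberg method over all genes and loci tested (below, the edgeR adjusted p), was under 0.05. In the same test 22.4% of all genes and loci were lower and 23.3% higher. Among annotated genes with a mean of at least 10 CPM, which have counts like those of most of these genes, 31.0% were lower and 23.1% higher. At an unadjusted p under 0.05 the numbers were again 39 lower and 0 higher, and with DESeq2's Wald test 39 were lower and 0 higher. The median log2 fold change of the 42 genes was -0.53, against a median of 0.00 over all genes and loci tested and of -0.05 over the annotated genes with a mean of at least 10 CPM. The change was modest in size. The 42 log2 fold changes ran from -1.10 to -0.12, with 22 below -0.5 and 2 below -1. With a stricter rule, more than 2-fold at an adjusted p below 0.001, 2 genes were lower, HEATR1 and LYAR, and 0 were higher, against 1.78% lower and 4.43% higher among all genes and loci tested.

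The summed level of the 42 genes was 6474, 6756 and 6704 CPM in the Huh7 P libraries and 4363, 4756 and 4658 CPM in the Huh7 LR libraries. The lines did not overlap, and the share of all counts that fell on these genes was 0.656% in Huh7 P and 0.464% in Huh7 LR on average. Taken gene by gene, every Huh7 LR library lay below every Huh7 P library for 41 of the 42 genes, and the exception was RRN3. Over all genes and loci tested, 27.7% showed that separation, and among annotated genes with a mean of at least 10 CPM 36.4% did.

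**Figure D1:**
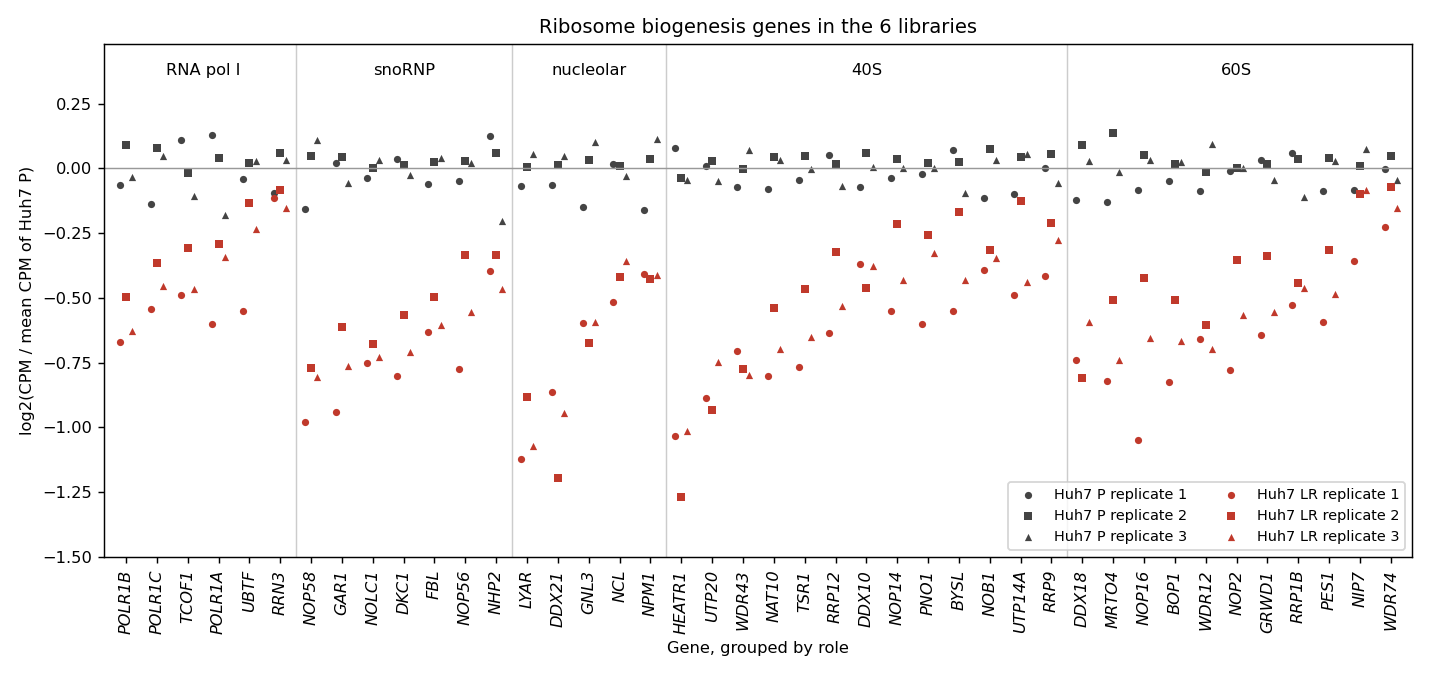
Level of each ribosome biogenesis gene in each library, as log2 of its CPM over the mean CPM of Huh7 P, with genes grouped by role along the horizontal axis and replicates marked by shape. The Huh7 LR points lie below the Huh7 P points for 41 of the 42 genes, and RRN3 is the gene whose points overlap.

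RNA polymerase I is represented by 6 genes, of which 5 fell. The strongest change was that of POLR1B, the second largest subunit of the enzyme (ENSG00000125630, GRCh38 chromosome 2, 112541915 to 112577150). It was at 52.4, 58.4 and 53.6 CPM in the Huh7 P libraries and at 34.4, 38.8 and 35.5 CPM in the Huh7 LR libraries. No Huh7 LR library reached the lowest Huh7 P library, and the log2 fold change was -0.60 (standard error 0.08, edgeR adjusted p = 0.000112). POLR1A, the largest subunit, fell by 0.41 on the log2 scale (standard error 0.10, edgeR adjusted p = 0.00663). POLR1C, a subunit shared with RNA polymerase III, fell by 0.45 (standard error 0.09, edgeR adjusted p = 0.00236). TCOF1 encodes treacle, a nucleolar phosphoprotein that binds the polymerase, and it fell from 167 ± 12.4 CPM to 125 ± 8.4 CPM (SD, n = 3 in each line). UBTF, which encodes the factor that shapes active ribosomal DNA, was the smallest of these declines, and its log2 fold change was -0.30 (standard error 0.10, edgeR adjusted p = 0.0307).

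RRN3, the factor that makes RNA polymerase I ready to initiate, did not pass the test. It was at 47.5, 52.9 and 52 CPM in Huh7 P and at 46.9, 47.9 and 45.7 CPM in Huh7 LR. The lowest Huh7 P library lay within the range of Huh7 LR, and the log2 fold change of -0.12 (standard error 0.07, edgeR adjusted p = 0.208) was the smallest in size of all 42 genes.

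All 7 snoRNP genes fell, with a median log2 fold change of -0.69. NOP58, a core protein of the box C/D snoRNPs that guide methylation of ribosomal RNA, led the group (ENSG00000055044, chromosome 2, 202265716 to 202303666). Its levels were 139, 160 and 167 CPM in Huh7 P and 78.7, 90.9 and 88.8 CPM in Huh7 LR. The ranges were far apart, and the log2 fold change was -0.85 (standard error 0.09, edgeR adjusted p = 2.35e-05). The other box C/D proteins, the methyltransferase FBL and the scaffold protein NOP56, had log2 fold changes of -0.58 (edgeR adjusted p = 6.04e-05) and -0.54 (edgeR adjusted p = 0.00113). In the H/ACA snoRNPs, which guide pseudouridylation, the catalytic subunit DKC1 fell by 0.69, GAR1 by 0.77 and NHP2 by 0.40 on the log2 scale. GAR1 was at 13.4 ± 0.484 CPM in Huh7 P and 7.88 ± 0.892 CPM in Huh7 LR (SD, n = 3). NOLC1, a chaperone of snoRNPs on their way to the nucleolus, fell from 328 ± 7.29 CPM to 199 ± 5 CPM (SD, n = 3), and its log2 fold change was -0.72 (standard error 0.06, edgeR adjusted p = 8.58e-06).

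All 5 genes of abundant or growth-related nucleolar proteins fell. LYAR, a nucleolar zinc finger protein (ENSG00000145220, chromosome 4, 4267701 to 4290169), was at 65.1, 68.6 and 71 CPM in Huh7 P and at 31.4, 37 and 32.5 CPM in Huh7 LR. DDX21, an RNA helicase that works with RNA polymerase I and on the precursor RNA (ENSG00000165732, chromosome 10, 68956128 to 68985073), was at 313, 330 and 338 CPM in Huh7 P and at 180, 143 and 170 CPM in Huh7 LR. The lines were far apart for both genes, and the fitted ratios of Huh7 LR to Huh7 P were 0.493 and 0.503. Their log2 fold changes were -1.02 (standard error 0.08, edgeR adjusted p = 4.01e-06) and -0.99 (standard error 0.09, edgeR adjusted p = 8.49e-06). NPM1 encodes nucleophosmin, a chaperone of the outer nucleolus (ENSG00000181163, chromosome 5, 171387116 to 171411137). It was at 891, 1023 and 1078 CPM in Huh7 P and at 752, 742 and 750 CPM in Huh7 LR, so that the Huh7 P libraries were the more variable and all lay above the Huh7 LR libraries. The log2 fold change was -0.42 (standard error 0.08, edgeR adjusted p = 0.00144). NPM1 has close pseudogene copies, and reads may have been divided among these copies when the authors counted them. NCL, which encodes nucleolin, fell by 0.43 and GNL3, which encodes the GTPase nucleostemin, by 0.62 on the log2 scale.

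All 13 genes of small subunit assembly fell, with a median log2 fold change of -0.40. HEATR1, a large scaffold protein of the particle that processes the small subunit precursor (ENSG00000119285, chromosome 1, 236549005 to 236604504), had the strongest decline of all 42 genes. Its levels were 170, 157 and 156 CPM in Huh7 P and 78.6, 66.8 and 79.8 CPM in Huh7 LR. Every Huh7 LR library lay far below the lowest Huh7 P library, and the log2 fold change was -1.10 (standard error 0.08, edgeR adjusted p = 2.85e-06). UTP20 and WDR43, further parts of that particle, fell by 0.85 (edgeR adjusted p = 6.16e-06) and 0.76 (edgeR adjusted p = 9.12e-06) on the log2 scale. NAT10, which acetylates small subunit ribosomal RNA, fell by 0.68 and TSR1, a late assembly factor, by 0.62. The remaining 8 genes had log2 fold changes from -0.49 for RRP12, which takes part in export of the particle, to -0.30 for RRP9, a protein of the U3 snoRNP. Among them were the helicase DDX10 at -0.40, NOP14 at -0.39, the nuclease NOB1 at -0.35, its partner PNO1 at -0.39, BYSL at -0.38 and UTP14A at -0.34.

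Of the 11 genes of large subunit assembly, 9 fell, and the median log2 fold change of the 11 was -0.56. DDX18, an RNA helicase (ENSG00000088205, chromosome 2, 117814650 to 117832379), was at 98.4, 114 and 109 CPM in Huh7 P and at 64, 61.1 and 70.9 CPM in Huh7 LR. The lines were well apart, and the log2 fold change was -0.72 (standard error 0.08, edgeR adjusted p = 4.75e-05). The subunits of the PeBoW complex, which is required for processing of the large subunit RNA, fell by 0.66 (BOP1), 0.65 (WDR12) and 0.46 (PES1) on the log2 scale. MRTO4, which holds the place of a stalk protein during assembly, had a log2 fold change of -0.69 and NOP16 one of -0.68. NOP16 was the most variable of the 42 genes between Huh7 LR libraries by SD over mean, at 24.4, 37.7 and 32.1 CPM. NOP2, which methylates large subunit ribosomal RNA, GRWD1, which escorts a ribosomal protein, and RRP1B had log2 fold changes of -0.56, -0.51 and -0.47.

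NIP7 and WDR74, both factors of large subunit assembly, did not pass the test. NIP7 (chromosome 16, 69337996 to 69343111) was at 37.1, 39.5 and 41.4 CPM in Huh7 P and at 30.7, 36.7 and 37.1 CPM in Huh7 LR, and its log2 fold change was -0.18 (standard error 0.09, edgeR adjusted p = 0.13). Without Huh7 LR replicate 1 the log2 fold change of NIP7 was -0.09 (edgeR adjusted p = 0.356). WDR74 (chromosome 11, 62832342 to 62841809) was at 50.5, 52.3 and 49 CPM in Huh7 P and at 43.3, 48.1 and 45.5 CPM in Huh7 LR, and its log2 fold change was -0.15 (standard error 0.07, edgeR adjusted p = 0.109). Neither gene had overlapping lines, although the top Huh7 LR library of NIP7 came level with the lowest Huh7 P library at the precision shown.

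**Figure D2:**
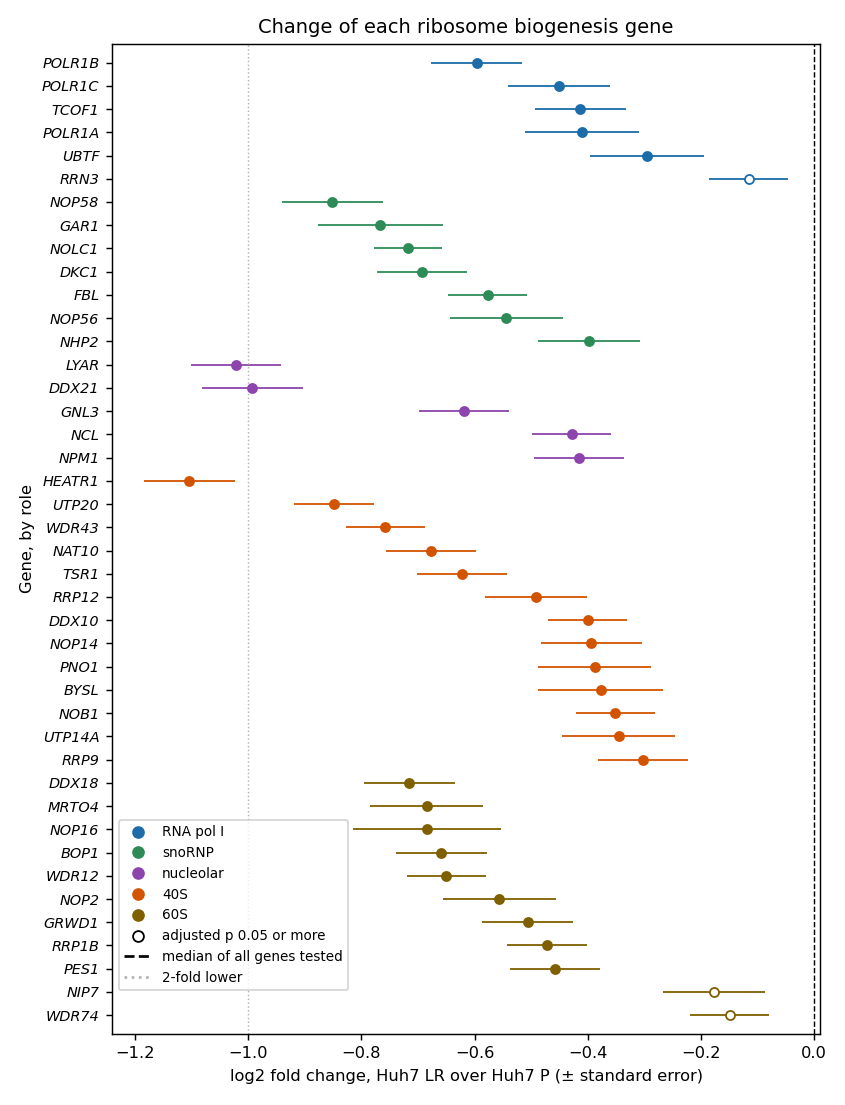
Log2 fold change of Huh7 LR over Huh7 P with its standard error for each of the 42 genes, coloured by role, with open symbols for an adjusted p of 0.05 or more. All points lie left of the dashed median of all genes tested, HEATR1 and LYAR lie past the dotted line of a 2-fold decline, and RRN3, NIP7 and WDR74 are the open symbols.

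The calls of 4 genes were lost when 1 library or another was left out, with fold changes of the same direction. UBTF lost its call with any library left out except Huh7 LR replicate 2, at edgeR adjusted p-values from 0.0528 to 0.0911, and its log2 fold change was -0.18 without Huh7 LR replicate 1. UTP14A did not pass without Huh7 P replicate 2 (edgeR adjusted p = 0.0699), Huh7 P replicate 3 (0.0619) or Huh7 LR replicate 3 (0.0799), with log2 fold changes of -0.32, -0.32 and -0.30 beside -0.34 with all libraries. BYSL did not pass without Huh7 P replicate 1 (edgeR adjusted p = 0.0564), Huh7 P replicate 2 (0.0552) or Huh7 LR replicate 3 (0.0541), with log2 fold changes of -0.34, -0.36 and -0.35 beside -0.38. RRP9 did not pass without Huh7 P replicate 2, at a log2 fold change of -0.27 (edgeR adjusted p = 0.0723). WDR74 passed without Huh7 LR replicate 2 (edgeR adjusted p = 0.044). The other 35 genes that fell were also lower, at an adjusted p under 0.05, in all 15 alternative fits. Leaving out any single library left 35 to 40 of the 42 genes lower and 0 higher.

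The libraries of a line were not alike in these genes. Huh7 LR replicate 1 was the lowest of its line for 31 of the 42 genes (73.8%), and Huh7 LR replicate 2 was the highest for 32 of them (76.2%). Among annotated genes with a mean of at least 10 CPM, the same libraries were lowest and highest for 46.2% and 47.7%. In the parental line, Huh7 P replicate 1 was the lowest for 28 of the 42 genes (66.7%, against 41.3% of those annotated genes) and Huh7 P replicate 2 for 0 (against 22.7%). NOP56, for example, was at 193, 262 and 225 CPM in the Huh7 LR libraries. Without Huh7 LR replicate 1 the median log2 fold change of the 42 genes was -0.44, and 38 of them were lower.

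Levels of different genes can be set side by side only per length, for which the deposited FPKM values (fragment counts scaled for gene length and depth) were used. NPM1 was the highest of the 42 genes in Huh7 P, at 599 ± 59.1 FPKM (SD, n = 3), followed by NCL at 323 ± 7.47 FPKM. FBL at 142 ± 3.85 FPKM and NOP56 at 137 ± 3.03 FPKM came next and lay within 2 SD of each other. NOLC1 at 81 ± 0.505 FPKM, NOP58 at 72.8 ± 6.16 FPKM and NHP2 at 71.9 ± 8.82 FPKM followed, and NOP58 and NHP2 did not differ beyond their spread. The chaperones and snoRNP proteins thus headed the order. At the other end were BYSL, POLR1B, PNO1 and GAR1, between 10.1 and 10.9 FPKM, whose order could not be told beyond their spread. In Huh7 LR the top of the order was again NPM1 at 445 ± 2.73 FPKM, NCL at 243 ± 12.5 FPKM, FBL at 95.7 ± 3.49 FPKM and NOP56 at 94.9 ± 13.5 FPKM.

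**Figure D3:**
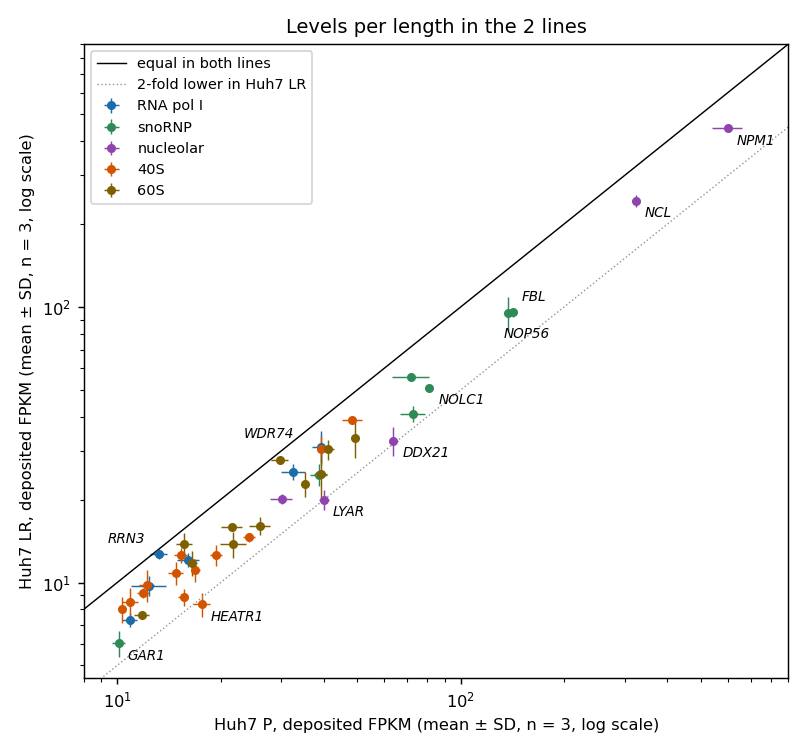
Deposited FPKM of the 42 genes in Huh7 P (horizontal) and Huh7 LR (vertical) on log scales, as mean ± SD of 3 libraries, coloured by role. All genes lie below the solid line of equal levels, from GAR1 at the lower left to NPM1 at the upper right, and HEATR1, LYAR and DDX21 lie near the dotted line of a 2-fold decline.

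Fitted declines of genes of the same complex were unequal in size for some pairs and nearly equal for others. Within each library, the log2 ratio of CPM was taken for the 12 pairs of subunits of the box C/D snoRNP, the H/ACA snoRNP, the PeBoW complex and RNA polymerase I, and the lines were compared by a two-sided exact permutation test, for which 0.1 is the smallest p that 3 libraries against 3 allow. The log2 ratio of NOP56 to NOP58 was 1.09 ± 0.10 in Huh7 P and 1.39 ± 0.12 in Huh7 LR (SD, n = 3, exact permutation p = 0.1). That of BOP1 to PES1 was -0.20 ± 0.03 in Huh7 P and -0.40 ± 0.03 in Huh7 LR (SD, n = 3, exact permutation p = 0.1). For GAR1 over NHP2 the log2 ratio went from -2.31 ± 0.13 to -2.69 ± 0.15 (SD, n = 3, exact permutation p = 0.1). These 3 ratios did not overlap between the lines. FBL over NOP56 differed by -0.02 (standard error 0.09) and BOP1 over WDR12 by -0.02 (standard error 0.09), with exact permutation p-values of 0.7 and 0.9, and the lines overlapped in both. In all, 8 of the 12 pairs reached the smallest p, and adjusted over the 12 pairs it was 0.15, so that this test could not pass any pair and decides nothing about them.

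Most other genes of the pathway were lower as well. Of 51 further genes of large subunit assembly tested, 36 were lower and 0 higher in edgeR's test, with a median log2 fold change of -0.39. They included the assembly factors BRIX1 (log2 fold change -0.79) and RRP15 (-0.74). Of 45 further genes of small subunit assembly, 34 were lower and 1 was higher, with a median of -0.40. ESF1 (-0.86) and NOL11 (-0.74), which takes part in transcription and processing of the precursor, had the strongest declines, and the gene that rose was RIOK3, a kinase found on late particles, by 0.85 on the log2 scale (standard error 0.08, edgeR adjusted p = 9.02e-06). Of 12 further snoRNP genes, 8 were lower and 0 higher, ZNHIT6 (-0.60) and the ATPase RUVBL1 (-0.57) among them.

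Of 15 further genes of RNA polymerase I and its promoter factors, 8 were lower and 1 higher, with a median log2 fold change of -0.28. TAF1A (-0.83) and TAF1D (-0.75), which belong to the factor that selects the ribosomal DNA promoter, were the lowest, and POLR1D, a subunit shared with RNA polymerase III, was the gene that rose (0.24, edgeR adjusted p = 0.0219). In the nuclear exosome, which trims ribosomal RNA precursors, 11 of 14 genes were lower and 0 higher, and EXOSC5, with a log2 fold change of -1.12 (edgeR adjusted p = 6.92e-06), passed 2-fold. Of the 79 cytosolic ribosomal protein genes, 47 were lower and 0 higher, and their median log2 fold change of -0.24 was smaller in size than that of the 42 genes. RPL14 (-0.56) and RPL17 (-0.53) fell most among them. Ribosomal protein genes have many pseudogene copies, so their counts are uncertain. All lists were counted in the same test, and their differences from one another were not tested.

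**Figure D4:**
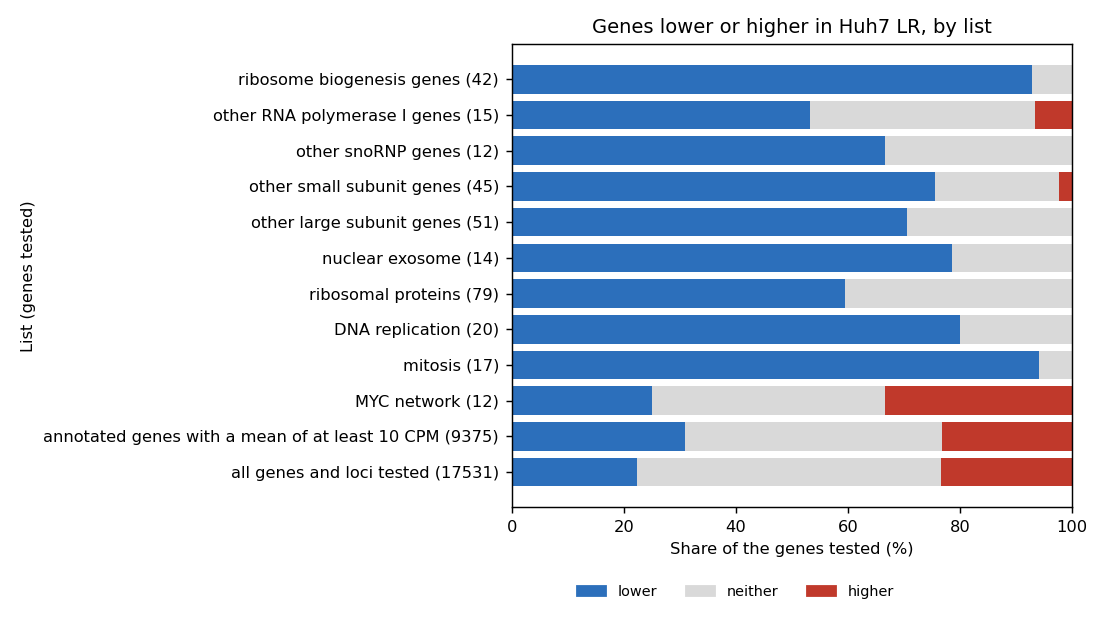
Share of the genes tested in each list that were lower (left), neither or higher (right) in Huh7 LR by the edgeR adjusted p, with the number tested in brackets. Lower genes make up 92.9% of the 42 ribosome biogenesis genes and 59.5% of the ribosomal protein genes, against 22.4% of all genes and loci tested.

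MYC, the transcription factor best known for driving these genes, was itself lower in Huh7 LR. It was at 93, 83.5 and 81.5 CPM in Huh7 P and at 34, 30.2 and 25.8 CPM in Huh7 LR, and its log2 fold change was -1.52 (standard error 0.10, edgeR adjusted p = 1.35e-06). Its relative MYCN moved the other way, from 41.5 ± 2.33 CPM to 69.1 ± 2.41 CPM (SD, n = 3), or 0.74 on the log2 scale (edgeR adjusted p = 1.51e-05). Their shared partner MAX did not pass (log2 fold change 0.15, edgeR adjusted p = 0.165). Of the 12 genes of the MYC network listed, 4 were higher, 3 lower and 5 neither, with a median log2 fold change of 0.12. The MAX partners that repress did not move alike, since MXD4 rose by 0.74 on the log2 scale (edgeR adjusted p = 6.18e-06) and MGA fell by 0.44 (edgeR adjusted p = 0.00489). Genes of cell division also moved with the ribosome biogenesis genes. Of 17 mitosis genes 16 were lower, with a median log2 fold change of -0.77, and of 20 DNA replication genes 16 were lower, with a median of -0.37. The part of MYC and of cell division in the decline of the 42 genes was not tested.

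MYC and MAX bind the E-box CACGTG, which reads the same on both strands and which other factors bind as well. RefSeq promoter windows of GRCh38.p14, from 250 bases before to 50 bases after a transcription start, were at hand for 35 of the 42 genes. The E-box was present in the windows of 16 of the 35 (45.7%), against 12.3% of 10920 annotated genes tested that have a window. These 10920 were not limited to genes with a mean of at least 10 CPM. The median log2 fold change was -0.60 for the 16 genes with it and -0.43 for the 19 without it, and 16 of each were lower. Over all annotated genes with a window, it was -0.05 with the E-box and -0.01 without it, and 29.1% and 25.5% of them were lower. For comparison, CCGGAAG (or CTTCCGG on the other strand) is the core bound by ETS factors. It was found for 12 of the 35 genes (34.3%) against 21% of all. TATAAA (or TTTATA) was found for 1 of the 35 (2.86%) against 9.29% of all. With CCGGAAG the median log2 fold change was -0.54 for the 12 genes and -0.46 for the 23 without it, and over all annotated genes with a window it was -0.09 with the motif and 0.01 without it. Of the genes with CCGGAAG 9 of 12 were lower, and of those without it 23 of 23, whereas over all annotated genes with a window 31.4% were lower with the motif and 24.4% without it. No difference between genes with and without a motif was tested. Neither motif can share a base with CACGTG. A match is a description of the sequence, not evidence of binding.

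The 8 genes with the lowest log2 fold changes among those with an E-box are shown to place it at their starts, each as a stretch of 30 bases on the strand of the gene with the E-box in capitals. Positions are counted from the transcription start of the RefSeq window, and the annotation is that of GENCODE release 29.
LYAR (chr4:4290068-4290097, minus strand, E-box 64 bases before the start, in the UTR of a longer transcript): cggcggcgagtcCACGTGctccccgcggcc
DDX21 (chr10:68956604-68956633, plus strand, 31 bases before the start, in the UTR of a longer transcript): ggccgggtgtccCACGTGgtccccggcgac
UTP20 (chr12:101280083-101280112, plus strand, 10 bases before the start, upstream of the gene): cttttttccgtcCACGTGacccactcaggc
GAR1 (chr4:109815781-109815810, plus strand, 32 bases into the transcript, in a window partly in the UTR): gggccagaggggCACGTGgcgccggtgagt
WDR43 (chr2:28894658-28894687, plus strand, 4 bases into the transcript, in the UTR): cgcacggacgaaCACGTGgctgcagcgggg
MRTO4 (chr1:19251807-19251836, plus strand, 15 bases into the transcript, in a window that holds UTR and coding sequence): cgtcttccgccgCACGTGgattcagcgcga
NAT10 (chr11:34105602-34105631, plus strand, 15 bases before the start, in the UTR of a longer transcript): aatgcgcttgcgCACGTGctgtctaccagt
GNL3 (chr3:52686026-52686055, plus strand, 7 bases into the transcript, in the UTR): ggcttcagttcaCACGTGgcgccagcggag
In these 8 genes the E-box lay between 64 bases before and 32 bases after the start. Outside this range, UTP14A had it 241 bases before the start and NOP2 36 bases into the transcript. The rest of the genes with an E-box had it within this range.

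The 42 genes are spread over 17 chromosomes. For 10 of them (23.8%) another annotated gene of the deposited table starts within 1000 bases upstream on the other strand, against 9.38% of annotated genes tested. Of these 10 neighbours, 4 (40%) were lower and 0 higher in edgeR's test, beside the 31.0% lower among annotated genes with a mean of at least 10 CPM, so that their count was near the background. PTCD3, whose start lies 27 bases from that of POLR1A, fell by 0.51 on the log2 scale (edgeR adjusted p = 0.00021), and PGAM1, which starts 84 bases from RRP12, by 0.45 (edgeR adjusted p = 0.0014). ZBTB49, which starts 82 bases from LYAR, had a log2 fold change of -0.10 (edgeR adjusted p = 0.543), beside -1.02 for LYAR itself. The difference between a gene and its neighbour was not tested.

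Small nucleolar RNA genes lie within 8 of the 42 genes on the same strand. The 8 genes are GNL3, NOP56, NOP58, NCL, WDR43, DKC1, TSR1 and POLR1C, and NOP56 for example holds SNORD56, SNORD57, SNORD86, SNORD110 and SNORA51. These 8 genes all fell, a count near the share of all 42 genes that did (92.9%). The snoRNAs themselves were not analysed here. Of 14 non-coding snoRNA host genes looked for by name, 0 were in the deposited table.

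Overlapping genes limit a few of these values. NOP2 shares 54.4% of its exon bases with AC006064.6 on the same strand, which had at most 101 counts in any library, and with that gene added the log2 fold change of NOP2 was again -0.56. GRWD1 shares 6.07% of its exon bases with KCNJ14 on the same strand, and with that gene added its log2 fold change went from -0.51 to -0.47. WDR74 shares 5.58% with TEX54, and its log2 fold change with that gene added was again -0.15. An antisense gene overlaps exons of 11 of the 42 genes, and whether counting used strand is not given in the sources used here. LGALS8, which overlaps 23.2% of the exon bases of HEATR1 on the other strand, was at 55.7 ± 5.46 CPM in Huh7 P and 50.5 ± 2.93 CPM in Huh7 LR (SD, n = 3), and its log2 fold change was -0.14 (edgeR adjusted p = 0.203). XPO5 is one of 3 antisense genes that together overlap 11.1% of the exon bases of POLR1C, and it fell from 110 ± 5.08 CPM to 76.6 ± 10.7 CPM (SD, n = 3), or by 0.52 on the log2 scale (edgeR adjusted p = 0.00121). POLR1C itself was at 22.9 ± 1.84 CPM in Huh7 P and 16.7 ± 1.05 CPM in Huh7 LR (SD, n = 3), and the part of XPO5 reads in its decline was not tested. COG8, which overlaps 20.2% of the exon bases of NIP7, had a log2 fold change of 0.12 (edgeR adjusted p = 0.271).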

How the data were processed

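Poly(A) RNA of 3 Huh7 P and 3 Huh7 LR samples was sequenced by a company, and samples were grouped by their titles. The deposited table gives for each gene and library a count, which the authors did not normalize, and an FPKM value, which the authors scaled for length and depth. The submitters' notes name TopHat2, Cufflinks and DESeq, without versions, and the build mm10, and the labels describe extraction from honeybee larvae, whereas all 19974 annotated gene identifiers are human and are present in GENCODE release 29 (GRCh38). Strand use in counting is not given in the sources used here. A further 34 lines of text hold no values, and 2.86% to 3.35% of counts fell on loci with no annotated gene.

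The main analysis used edgeR 4.0.16 in R 4.3.3 (filterByExpr with a minimum count of 10, TMM factors of 0.977 to 1.03, quasi-likelihood test, Benjamini-Hochberg adjustment), and the code was tested on simulated data. A count of 0 allows up to 3 counts, or 0.042 to 0.0478 CPM, which covers counting error only. Each standard error is the size of the log2 fold change over the root of its F value. The alternatives were DESeq2 1.42.0 (Wald test, and its size factors in edgeR), no filter, at least 10 counts in every library, annotated genes only, a replicate block, limma-trend (limma 3.58.1) on log2(FPKM + 0.1) and log2(FPKM + 1), adjusted p thresholds of 0.01 and 0.001, and each library left out. Summed overlapping genes and the background of genes with at least 10 CPM were added after seeing the data, as were the comparisons of subunit ratios, promoters and neighbours. The 42 genes, their role groups and the other lists were chosen with earlier results of these data known. Genes shown library by library are the 3 largest and 3 smallest fold changes, the strongest of each role and the highest in FPKM, and NOP56 and NOP16 were added after their values were seen. From further lists, the 2 genes at either end among those past the test could be named, with MYC, MAX and MYCN, and the neighbours and overlapping genes were chosen after their values were seen. Figures were drawn with matplotlib 3.10.9.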

Additional observations from a re-analysis of the deposited data

How the results depend on the processing

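The number of ribosome biogenesis genes that were lower stayed between 35 and 40 of 42 with each library left out in turn, was 39 in the other analyses at an adjusted p under 0.05, and was 35 at an adjusted p under 0.01 and 24 at an adjusted p under 0.001. It was 0 higher in all of these. Past 2-fold at an adjusted p under 0.001, 2 were lower in edgeR's test, 1 with limma-trend on log2(FPKM + 0.1), 0 with limma-trend on log2(FPKM + 1), which shrinks changes of low values by its construction, and 1 to 3 with each library left out. Without Huh7 P replicate 3, the 1 gene was HEATR1, as LYAR had a log2 fold change of -0.99. The cause was not tested. The median log2 fold change of the 42 genes lay between -0.59 and -0.44, while that of all genes tested lay between -0.004 and 0.043. Of 630 values of single genes, 617 kept their direction and side of the threshold, 12 became weaker, 1 became stronger and 0 changed direction. With limma-trend on log2(FPKM + 0.1), RRN3 had a log2 fold change of -0.05 and WDR74 one of -0.09, and neither passed. Same-numbered samples deviated together only weakly, with correlations across genes of 0.029, 0.0314 and 0.0317, so that the numbers were not taken to pair the samples, although each sample correlated best with its own number. With the replicate block, 39 of the 42 genes were lower, their median log2 fold change was -0.53, and 4089 genes and loci were higher and 4033 lower, against 4093 and 3923 without it. With 1 library left out, a line has 2, and the calls of UBTF, UTP14A, BYSL and RRP9 did not hold in every such fit.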
